A study of Mus musculus with 24 samples.

Results

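The 36 genes described here serve protein folding in the endoplasmic reticulum or belong to the transcription factor ATF4 and its targets. They were found as every probe set of the array table that the platform annotation gives to a single gene among these 36. That gave 81 of the 34945 single-gene probe sets, and 36 of 18193 genes. For each gene the probe set with the highest mean over all 24 arrays was used. The genes fall into 15 folding genes, 7 genes of endoplasmic reticulum-associated degradation and protein entry, 3 stress sensors with Xbp1, and 10 genes of the ATF4 arm.

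The samples were livers of male BALB/c mice, 6 weeks old when bought and kept on a nonpurified diet for a week before the experiment. All groups then ate the purified AIN-93G diet for 14 days, with phloridzin added at 0, 0.1, 0.5 or 1.0% of the diet. Phloridzin is a plant glucoside that blocks sodium-coupled glucose transport in intestine and kidney. Each diet was given to 6 mice, housed 3 per cage, and the labels list 6 Affymetrix arrays per diet. The study's title names blood glucose and hepatic gene expression in normal mice as its subject, and the 3 doses against the control diet are its comparisons.

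The 24 arrays did not behave as 24 separate livers. Over 1463 bright genes, 13 of the 276 pairs of arrays differed by an SD of only 0.0436 to 0.0577 on the log2 scale, as repeat hybridisations would, and 8 more pairs by 0.108 to 0.137. The other 255 pairs differed by at least 0.164. Arrays of the first 2 kinds were averaged and counted as 1 RNA sample, which left 4 control samples, 3 samples at 0.1%, 2 at 0.5% and 2 at 1.0%. Another RNA appeared on 4 arrays, labelled 0.1% for replicates 1, 3 and 6 and 1.0% for replicate 1, and it entered no comparison. Samples are named below by the replicate numbers of their arrays. Array medians ran from 9.49 to 18.0 linear units before scaling, and the few samples limit the precision. All p-values measure only the spread between these samples, since nothing in the labels says which mice or cages they came from. The hepatocyte markers Alb, Apoa1, Ttr, Cps1, Cyp2e1, Serpina1c and Fgb stood at 12.86 or more in all 11 samples, and the Ass1 probe set was dim, at 3.72 to 5.51.

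Secreted and membrane proteins fold in the endoplasmic reticulum, where chaperones of the Hsp70 and Hsp90 families, lectin chaperones and protein disulfide isomerases assist them. When unfolded proteins build up, the sensors IRE1 (gene Ern1), ATF6 and PERK (Eif2ak3) start the unfolded protein response. ATF6 and the spliced form of XBP1 induce chaperone and degradation genes, while PERK slows protein synthesis and lets ATF4 be translated, which induces amino acid synthesis genes and stress regulators such as Ddit3. The liver exports large amounts of plasma protein, and hepatocytes are rich in rough endoplasmic reticulum.

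After quantile scaling, at 1.0% phloridzin the folding genes stood mostly above the control diet and the ATF4 genes mostly below it. Of the 15 folding genes, 12 were higher, with a median log2 difference of 0.26, and of the 9 ATF4 genes tested 1 was higher, with a median of -0.27. The median over all 13118 genes tested was -0.02. No gene of either group passed an adjusted p of 0.05, so these are directions in 2 samples against 4. The direction of the folding genes also rests on the scaling of the arrays. With median centring their median was 0.027 and with no scaling -0.13, while the median of all genes moved to -0.20 and -0.35. Relative to all genes, the folding genes stood 0.29 higher under quantile scaling, 0.22 higher under median centring and 0.22 higher with none. The ATF4 genes stood 0.24, 0.32 and 0.32 lower on the same 3 scales. Single genes moved as well: with no scaling the differences at 1.0% given below were 0.24 for Hyou1, 0.21 for Hsp90b1, 0.13 for Hspa5, 0.086 for Dnajc3 and 0.038 for Manf, all still above 0. With the RNA of 2 labels kept under each, those of Hspa5, Hsp90b1 and Dnajc3 were 0.11, 0.21 and 0.15.

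**Figure D1:**
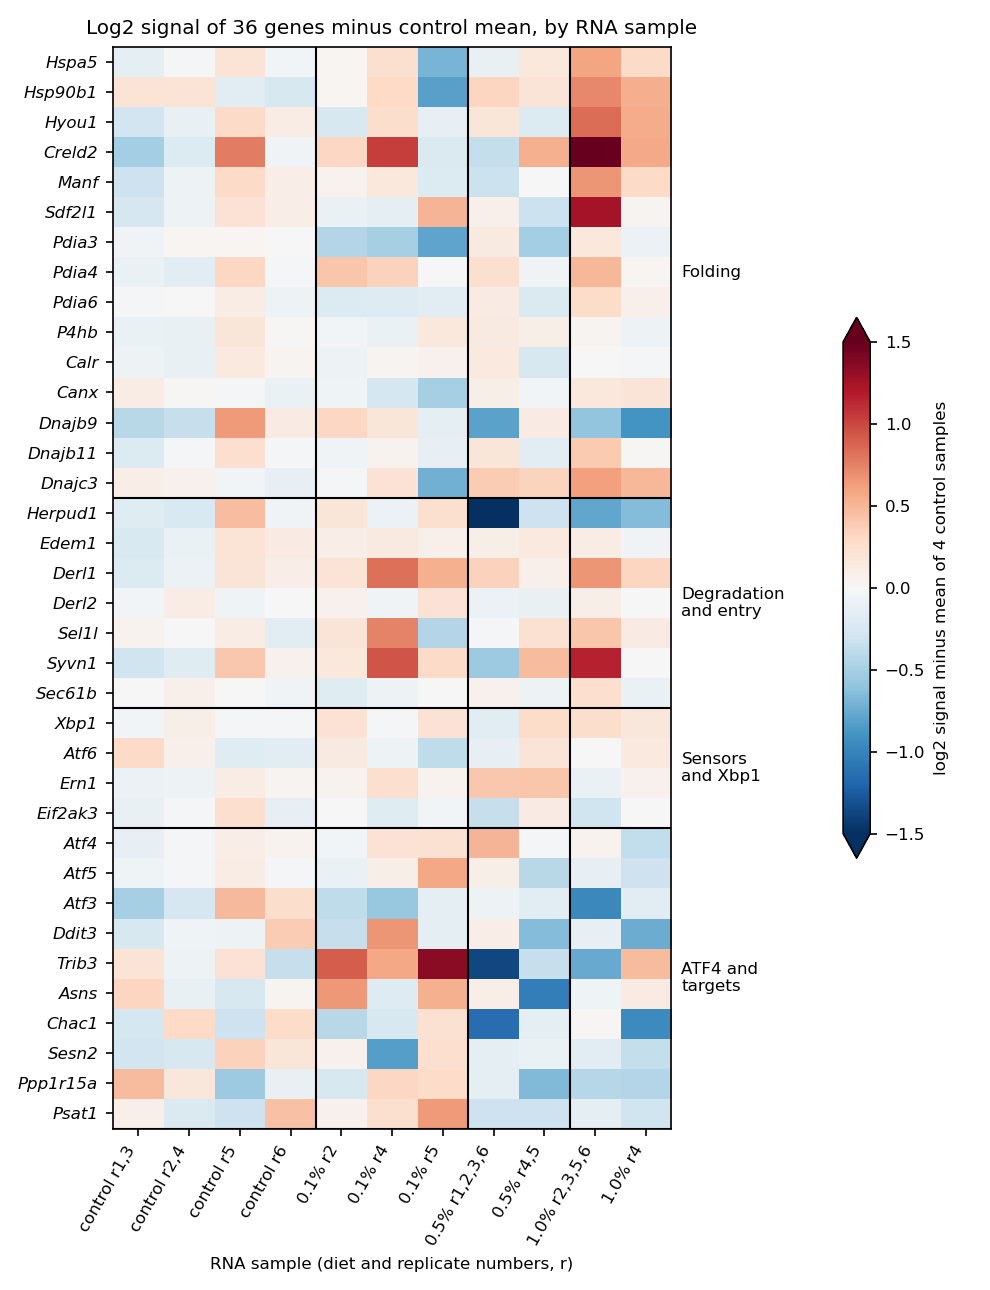
Each cell is the log2 signal of 1 gene (rows, by role) in 1 RNA sample (columns, with the replicate numbers of the arrays averaged), minus the mean of the 4 control samples, on a colour scale that ends at 1.5 either way. The column of 1.0% replicates 2, 3, 5 and 6 is red for most folding genes and blue or pale for most ATF4 genes on this quantile scale (the folding median at 1.0% is -0.13 with no scaling), and Herpud1 and Dnajb9 are blue in both 1.0% columns.

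The promoter windows of the roles were searched for known stress elements. The windows searched run from 250 bases before to 50 bases after the gene's start, from RefSeq's annotation of GRCm38.p6, and 32 of the 36 members had one. Manf, Derl1, Atf6 and Hyou1 were not matched. The endoplasmic reticulum stress element, searched as CCAAT and CCACG with 9 free bases between them, is bound by NF-Y at its CCAAT end and by ATF6 at the other. Searched on both strands, it lay in the windows of 8 of the 22 endoplasmic reticulum genes and of none of the 10 ATF4 genes, against 0.137% of all 27025 genes with a window. The second form, ATTGG and CCACG with 1 free base between them, lay in those of Dnajb11 and Herpud1 (0.044% of all genes). The ATF4 composite element, searched as TGATGNAA, lay in those of Atf3, Trib3, Asns, Chac1 and Herpud1 (4.511% of all genes). A match is a description of letters and not a measured binding site.

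These stretches are shown because they carry the elements of the genes whose values follow. All are written 5′ to 3′ on the gene's strand, with the element in capitals, and positions count from the start site.
Hspa5: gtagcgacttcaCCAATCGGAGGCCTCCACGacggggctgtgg
Hsp90b1 proximal: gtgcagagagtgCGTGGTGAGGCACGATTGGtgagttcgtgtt
Creld2: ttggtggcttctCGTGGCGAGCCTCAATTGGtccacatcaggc
Dnajc3: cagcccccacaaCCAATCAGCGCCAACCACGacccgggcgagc
Calr: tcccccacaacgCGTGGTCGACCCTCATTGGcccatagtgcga
Herpud1: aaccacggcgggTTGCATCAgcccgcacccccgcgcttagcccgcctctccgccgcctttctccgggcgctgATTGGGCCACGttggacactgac
Asns: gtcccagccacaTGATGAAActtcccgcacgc
Chac1: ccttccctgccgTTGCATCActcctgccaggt
Trib3: agctcaggtTTACATCAgccgggcgg

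The Hspa5 stretch lies on the plus strand at chr2:34772013-34772055, upstream of the gene, from base -77 to -35. That of Hsp90b1 lies on the minus strand at chr10:86705521-86705563 and holds the element in reverse orientation, and a further copy lies more distally in the same window. Creld2 (chr15:88819508-88819550, plus strand) and Calr (chr8:84847063-84847105, minus strand) also hold it reversed, and Dnajc3 (chr14:118937815-118937857, plus strand) holds it forward. The Herpud1 stretch, chr8:94386305-94386399 on the plus strand, has an ATF4 element first and the second stress element form last. The stretches with ATF4 elements lie at chr6:7693213-7693244 on the minus strand for Asns and chr2:119351037-119351068 on the plus strand for Chac1. That of Trib3 lies at chr2:152344030-152344055 on the minus strand. Asns holds the ATF4 element forward, and Chac1, Trib3 and Herpud1 hold it reversed. The Trib3 stretch begins 5 bases downstream of the annotated start, whereas the Asns and Chac1 stretches lie upstream of theirs.

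Among endoplasmic reticulum genes with a window, 8 had the first form of the stress element. Their median log2 difference at 1.0% was 0.50, with 7 higher. The 14 without that form, which include Dnajb11 (0.21) and Herpud1 (-0.71) with the second form, had a median of 0.04, with 9 higher. At 0.5% the medians were 0.03 and 0.01, and at 0.1% they were -0.15 and 0.10. These are counts and medians of few genes, and the groups were not tested against each other. Of the 8, 7 are folding genes, so this split overlaps with that by role. Hyou1 and Manf, without a window, are in neither set. The median of all 15 folding genes at 1.0% was 0.26, but 0.07 without replicates 2, 3, 5 and 6 and -0.13 with no scaling.

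Hspa5 encodes BiP, the Hsp70 chaperone of the endoplasmic reticulum, which also holds the stress sensors inactive. Its log2 signal was 12.03, 12.14, 12.37 and 12.12 in the control samples, 12.19, 12.41 and 11.47 at 0.1%, 12.05 and 12.33 at 0.5%, and 12.76 and 12.45 at 1.0%. Both 1.0% samples lay above every control sample, and replicate 5 of the 0.1% diet was the lowest of all. The difference at 1.0% was 0.44 ± 0.20 (SE), a 1.36-fold higher signal, with an adjusted p of 0.761 by limma, and 0.29 without replicates 2, 3, 5 and 6 of that diet. The other 2 Hspa5 probe sets gave 0.48 and 0.60. The second of these, the dimmest, also gave 0.50 at 0.1% and 0.50 at 0.5%. There the chosen probe set gave -0.14 and 0.02 and the remaining one -0.23 and -0.02.

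Hyou1, an Hsp110-type chaperone that serves as nucleotide exchange factor for BiP, had the lowest p of the members at 1.0%. It stood at 8.11, 8.28, 8.69 and 8.51 in controls, 8.16, 8.66 and 8.27 at 0.1%, 8.58 and 8.19 at 0.5%, and 9.23 and 8.96 at 1.0%. The 1.0% samples again lay above all others, while the 3 other diets covered the same range. The difference from control was 0.70 ± 0.19 (1.62-fold, adjusted p = 0.626 by limma). Against 0.1% it was 0.73 ± 0.20 and against 0.5% 0.71 ± 0.22, with adjusted p of 0.221 and 0.989. The other Hyou1 probe sets gave 0.61 and 0.97 from control at 1.0%. At 0.1% they gave 0.24 and 0.43, where the chosen one gave -0.03. The first of them is dim, with a mean of 3.32, near the floor of 3.00 set for dim probe sets.

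Hsp90b1 encodes GRP94, the Hsp90 chaperone of the compartment. Its values were 11.35, 11.36, 10.97 and 10.91 in controls, 11.17, 11.44 and 10.33 at 0.1%, 11.47 and 11.35 at 0.5%, and 11.87 and 11.70 at 1.0%. Both 1.0% samples lay above every other sample. The difference was 0.63 ± 0.23 (1.55-fold, adjusted p = 0.747 by limma), and its other probe set gave 0.94.

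Dnajc3 encodes P58IPK, a J-domain co-chaperone of BiP that also inhibits PERK. It stood at 9.45, 9.42, 9.31 and 9.22 in controls, 9.33, 9.57 and 8.62 at 0.1%, 9.72 and 9.68 at 0.5%, and 9.96 and 9.84 at 1.0%. Both higher doses lay above all controls, with the 1.0% samples above the 0.5% samples. The difference was 0.35 ± 0.19 at 0.5% and 0.55 ± 0.19 at 1.0%, with adjusted p of 0.965 and 0.747 by limma, and with no scaling 0.089 and 0.086. From brightest to dimmest, its other probe sets gave 0.10, 0.20, 0.31 and -0.02 at 0.5%. At 1.0% they gave 0.12, 0.34, 0.53 and 0.69. In a fit of a straight line on phloridzin content over all 11 samples Dnajc3 had the lowest p of the members, with a slope of 0.66 ± 0.19 per percent of diet (adjusted p = 0.464).

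Creld2, Manf and Sdf2l1 encode small proteins of the compartment that are known as stress-induced, Manf being a secreted factor that binds BiP and Sdf2l1 a partner of BiP co-chaperones. Creld2 stood at 8.43, 8.74, 9.71 and 8.88 in controls and 10.58 and 9.50 at 1.0%. At 0.1% it stood at 9.25, 9.98 and 8.72, and at 0.5% at 8.58 and 9.48. Its control spread reached past the lower 1.0% sample, and the difference of 1.10 ± 0.39 (2.15-fold, adjusted p = 0.747 by limma) came to 0.56 without replicates 2, 3, 5 and 6 of that diet.

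Manf read 10.51, 10.75, 11.12 and 10.92 in controls, 10.87, 10.98 and 10.63 at 0.1%, 10.51 and 10.83 at 0.5%, and 11.49 and 11.11 at 1.0%. One 1.0% sample thus lay just inside the control range. The difference was 0.47 ± 0.17 against control (adjusted p = 0.747 by limma; 0.29 without replicates 2, 3, 5 and 6) and 0.63 ± 0.19 against 0.5% (adjusted p = 0.989).

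Sdf2l1 read 5.59, 5.76, 6.06 and 5.93 in controls, 5.73, 5.69 and 6.35 at 0.1%, 5.91 and 5.51 at 0.5%, and 7.09 and 5.88 at 1.0%. Its difference at 1.0%, 0.65 ± 0.30 (adjusted p = 0.761 by limma), came from 1 sample: without replicates 2, 3, 5 and 6 it was 0.044, and without replicate 4 it was 1.25.

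**Figure D2:**
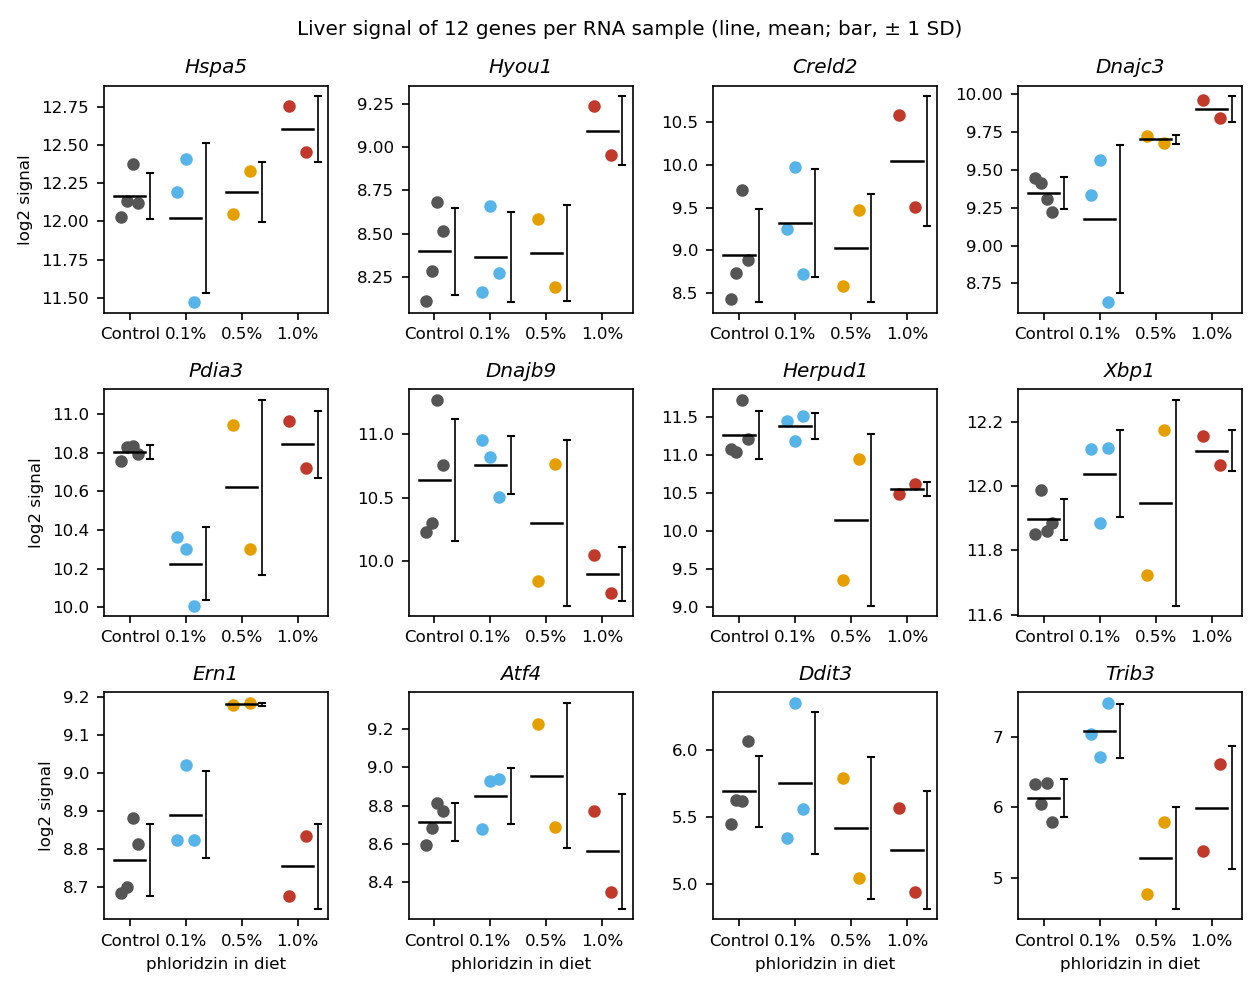
Points are log2 signals of 12 genes in each RNA sample (4 control, 3 at 0.1%, 2 at 0.5%, 2 at 1.0%), lines are group means and bars span 1 SD either way, with a separate vertical scale for each gene. Hspa5, Hyou1 and Dnajc3 have both 1.0% samples above all controls, Herpud1 and Dnajb9 have them below, and Trib3 is high at 0.1% and low at 0.5%.

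The protein disulfide isomerases and the lectin chaperones showed other patterns. Pdia3 (ERp57), which works with calnexin and calreticulin on glycoproteins, stood at 10.76, 10.83, 10.84 and 10.80 in controls and at 10.37, 10.30 and 10.01 at 0.1%. It read 10.94 and 10.30 at 0.5%, and 10.97 and 10.72 at 1.0%. All 3 samples at 0.1% were below the narrow control range, while the higher doses straddled it. The difference at 0.1% was -0.58 ± 0.14 (adjusted p = 0.460 by limma), the lowest p of any member in that comparison, and 1.0% against 0.1% gave 0.62 ± 0.16 (adjusted p = 0.221).

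Canx, the membrane-bound lectin chaperone calnexin, read 11.39, 11.30, 11.24 and 11.17 in controls, 11.22, 11.02 and 10.78 at 0.1%, 11.37 and 11.24 at 0.5%, and 11.44 and 11.46 at 1.0%. The 0.1% samples overlapped the controls, and the 1.0% samples lay above them. The difference at 0.1% was -0.27 ± 0.10 (adjusted p = 0.525 by limma), and 1.0% against 0.1% gave 0.45 ± 0.12 (adjusted p = 0.221). Without replicate 5 of the 0.1% diet the first was -0.16. Its 3 probe sets spread from -0.57 to 0.13 at 0.1%.

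Pdia6, a further disulfide isomerase, read 10.73, 10.74, 10.85 and 10.66 in controls, 10.54, 10.55 and 10.59 at 0.1%, 10.86 and 10.53 at 0.5%, and 11.02 and 10.82 at 1.0%. The 0.1% samples were all below the controls, by -0.19 ± 0.10 (adjusted p = 0.616 by limma). Calr, the soluble lectin chaperone calreticulin, stayed between 11.90 and 12.28 in all 11 samples, although its promoter holds a stress element. P4hb, the classical protein disulfide isomerase, ranged from 11.91 to 12.21. Pdia4, a multi-domain isomerase, ran from 6.79 to 7.47, and Dnajb11, a J-domain co-chaperone of BiP, from 8.12 to 8.73. Their 1.0% samples overlapped the controls in all 4.

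Dnajb9 (ERdj4), a BiP co-chaperone that represses IRE1, was 1 of the 3 folding genes that stood lower at 1.0%, the others being Calr and P4hb at -0.0047 and -0.018. It read 10.23, 10.30, 11.28 and 10.76 in controls, 10.95, 10.82 and 10.51 at 0.1%, 9.84 and 10.76 at 0.5%, and 10.05 and 9.75 at 1.0%. Both 1.0% samples were below every control, by -0.74 ± 0.28 (adjusted p = 0.753 by limma). It was the only folding gene lower with an unadjusted p under 0.05 in that comparison.

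Counted over the group at 1.0%, 7 of 15 folding genes were higher and 1 was lower at an unadjusted p under 0.05, where 2.48% of all genes were higher and 4.02% lower. None was called at an adjusted p under 0.05, where limma called 2 of 13118 genes, or 0.0152%, and 852 genes, or 6.49%, had an unadjusted p under 0.05. Of the folding genes 5 had both 1.0% samples above all controls, against 8.23% of all genes. The count of 7 rests on 1 sample: without replicates 2, 3, 5 and 6 it was 1, with a median difference of 0.07. Without replicate 4 it was again 7, with a median of 0.50. With the RNA of 2 labels kept under each, the count was 1 and the median 0.15. The sample of replicates 2, 3, 5 and 6 was the highest of the 11 for 11 of 15 folding genes, against 6.51% of all genes, and for none of the 9 ATF4 genes. In that sample 19 acute-phase genes averaged 0.41 above their control mean, where controls ran from -0.11 to 0.082 and replicate 4 stood at -0.074. Their part in the folding values was not tested.

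At 0.1%, 7 of 15 folding genes were higher than control, with a median of -0.03, and at 0.5%, 8 of 15, with a median of 0.01. Limma called 3 of 13118 genes at 0.1% (0.0229%) and 1 at 0.5% (0.00762%), and no folding gene was among them. At an unadjusted p under 0.05 there were 2 folding genes at 0.1%, both lower, beside 3.99% of all genes lower and 8.47% in either direction. At 0.5% there was none, beside 5.22% of all genes in either direction.

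**Figure D3:**
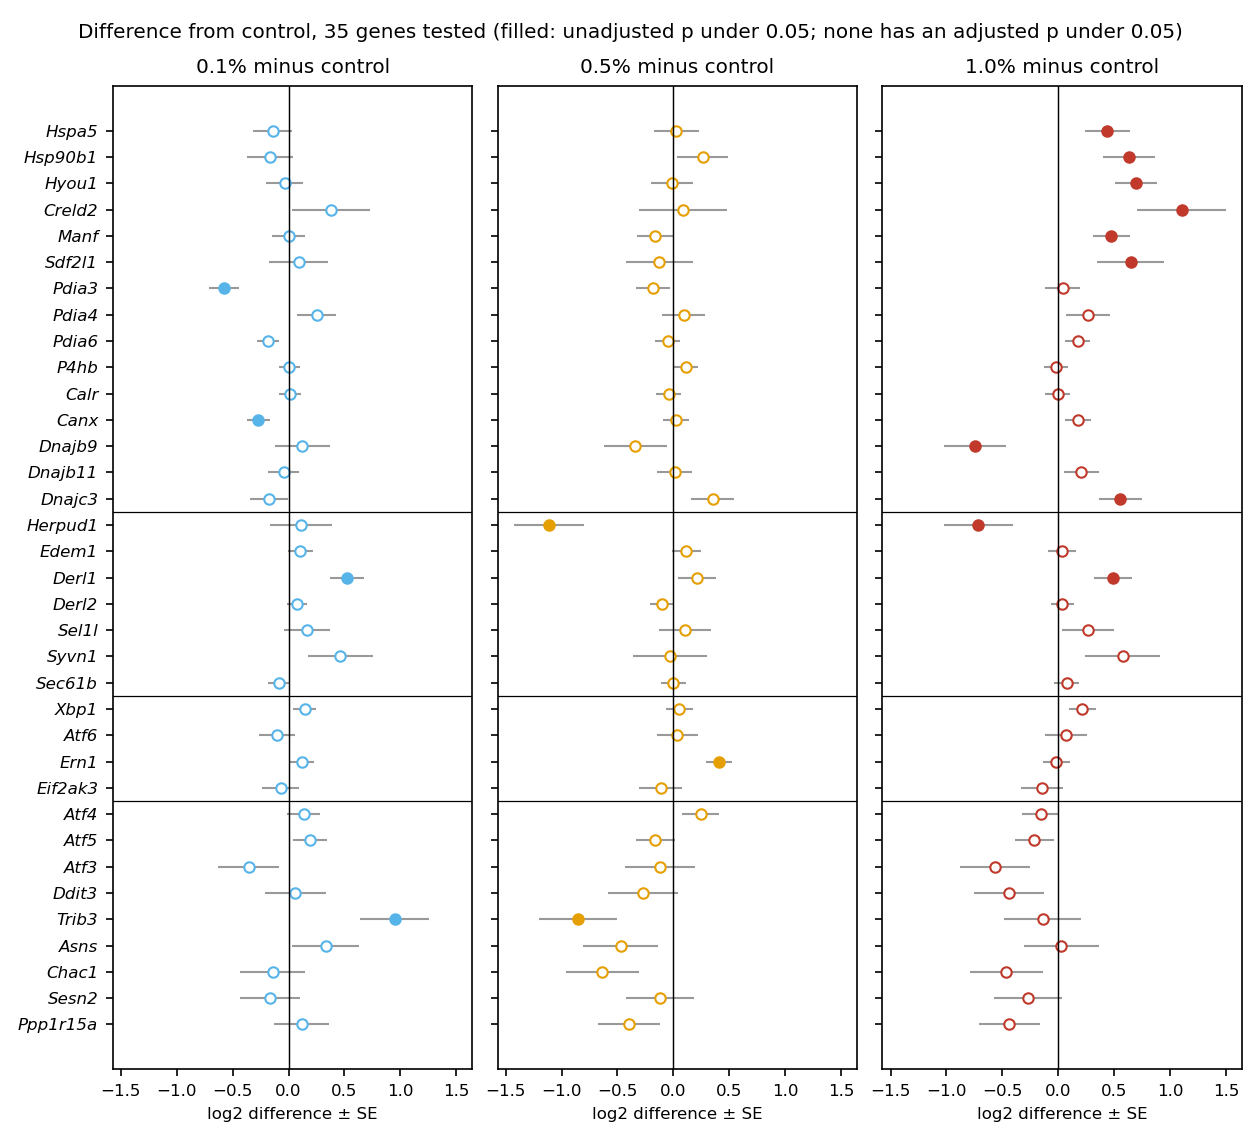
Points are log2 differences from control with their standard errors for the 35 genes tested, by role and in 1 panel per dose, and filled points have an unadjusted p under 0.05. At 1.0% the upper panel rows, the folding genes, lie mostly right of 0 with Dnajb9 to the left (their median turns to -0.13 with no scaling), and the bottom rows, the ATF4 genes, lie mostly left.

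Of the 7 degradation and entry genes, Herpud1 and Derl1 had an unadjusted p under 0.05 at 1.0%, in opposite directions. Herpud1 encodes HERP, a membrane protein that helps assemble the HRD1 ubiquitin ligase complex. It read 11.08, 11.03, 11.72 and 11.20 in controls, 11.44, 11.18 and 11.50 at 0.1%, 9.35 and 10.94 at 0.5%, and 10.48 and 10.61 at 1.0%. All 4 samples of the higher doses lay below all 7 of control and 0.1%. The difference was -1.11 ± 0.31 at 0.5% (2.17-fold lower, adjusted p = 0.617) and -0.71 ± 0.31 at 1.0% (1.64-fold lower, adjusted p = 0.761), both by limma. Its other probe set gave -1.40 and -0.62.

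The 0.5% value of Herpud1 depended on which RNA was present. Without replicates 4 and 5 of that diet it was -1.91 with an adjusted p of 0.0052, leaving the single sample of replicates 1, 2, 3 and 6, which was assumed to vary like the other groups. Without that sample it was -0.32. The same sample stood apart in other genes: the clock output gene Dbp read 5.24 there and 7.63 to 9.87 in controls, and 19 acute-phase genes averaged 1.41 above their control mean. Their part in the Herpud1 value was not tested.

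Derl1 encodes derlin-1, a membrane protein of the retrotranslocation machinery. It read 9.22, 9.34, 9.61 and 9.53 in controls, 9.63, 10.25 and 9.96 at 0.1%, 9.77 and 9.51 at 0.5%, and 10.08 and 9.75 at 1.0%. Every sample at 0.1% and 1.0% was above the controls. The differences were 0.52 ± 0.15 at 0.1% (adjusted p = 0.488) and 0.49 ± 0.17 at 1.0% (adjusted p = 0.747), both by limma. Its other 3 probe sets gave -0.09, -0.06 and -0.31 at 1.0%, so the direction there belongs to 1 probe set of 4. Without replicates 2, 3, 5 and 6 the 1.0% difference was 0.33.

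Syvn1 encodes HRD1, the ubiquitin ligase itself, and Sel1l its adaptor. Syvn1 read 8.33, 8.45, 9.03 and 8.69 in controls, 8.78, 9.57 and 8.91 at 0.1%, 8.08 and 9.10 at 0.5%, and 9.78 and 8.62 at 1.0%. Its values spread widely within every diet. Sel1l read 9.46, 9.41, 9.52 and 9.24 in controls, 9.61, 10.15 and 8.96 at 0.1%, 9.39 and 9.64 at 0.5%, and 9.83 and 9.53 at 1.0%. The lower of its 1.0% samples was only just above the highest control, and the 0.1% samples lay on both sides. Edem1, which extracts misfolded glycoproteins, ran from 9.27 to 9.71, Derl2 from 10.10 to 10.43 and Sec61b, a subunit of the entry channel, from 10.20 to 10.63. Over the 7 genes, 6 were higher than control at 0.1%, 3 at 0.5% and 6 at 1.0%, with medians of 0.11, -0.0020 and 0.076.

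Among the sensors, Ern1 stood highest at 0.5% in its brightest probe set. It read 8.68, 8.70, 8.88 and 8.81 in controls, 8.82, 9.02 and 8.83 at 0.1%, 9.18 and 9.18 at 0.5%, and 8.68 and 8.83 at 1.0%. Both 0.5% samples lay above all 9 others. The difference from control was 0.41 ± 0.12 (adjusted p = 0.617 by limma), and 1.0% against 0.5% gave -0.43 ± 0.14 (adjusted p = 0.989). The 3 dimmer probe sets that passed the filter gave -0.17, -0.56 and -0.18 at 0.5%, and the mean over its probe sets was -0.12.

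Xbp1, whose mRNA is spliced by IRE1, read 11.85, 11.99, 11.86 and 11.88 in controls, 12.11, 11.88 and 12.12 at 0.1%, 11.72 and 12.18 at 0.5%, and 12.15 and 12.07 at 1.0%. The 1.0% samples were above the controls by 0.21 ± 0.12 (adjusted p = 0.772 by limma), and with no scaling the difference was -0.16. Splicing was not measured here. Atf6 ranged from 6.91 to 7.57 and Eif2ak3 from 6.10 to 6.70, with no diet clear of the controls.

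Atf4 mRNA, whose translation rather than level is the main point of control, read 8.59, 8.68, 8.82 and 8.77 in controls, 8.68, 8.93 and 8.94 at 0.1%, 9.23 and 8.69 at 0.5%, and 8.77 and 8.35 at 1.0%. Every diet overlapped the controls. The differences of this probe set were 0.13, 0.24 and -0.16 at 0.1, 0.5 and 1.0%. Another Atf4 probe set, nearly as bright with a mean of 8.67, gave 0.42, 0.25 and 0.14. The direction at 1.0% thus differed between them. Atf5, a related factor translated in the same way, read 9.74, 9.77, 9.91 and 9.78 in controls, 9.70, 9.89 and 10.37 at 0.1%, 9.89 and 9.39 at 0.5%, and 9.68 and 9.49 at 1.0%. Its 1.0% samples were just below the controls.

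Trib3, a pseudokinase induced by ATF4 that binds AKT, stood on opposite sides of the controls at the 2 lower doses. It read 6.33, 6.05, 6.35 and 5.79 in controls, 7.04, 6.72 and 7.48 at 0.1%, 4.77 and 5.79 at 0.5%, and 5.37 and 6.61 at 1.0%. The 3 samples at 0.1% stood above every other of the 11, and the 0.5% samples reached no higher than the lowest control. The difference was 0.95 ± 0.31 at 0.1% (1.93-fold, adjusted p = 0.488) and -0.85 ± 0.35 at 0.5% (adjusted p = 0.877), by limma. Its other probe set gave 1.13 and -0.78. The 0.5% difference was -0.34 without replicates 1, 2, 3 and 6 and -1.36 without replicates 4 and 5.

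Between doses, 0.5% against 0.1% gave -1.80 ± 0.37 for Trib3 (adjusted p = 0.186 by limma), where 0 of 13118 genes were called and 10.7% had an unadjusted p under 0.05. Trib3 also had the lowest p of the members in the F-test over the 4 diets, with an F of 8.56 and an adjusted p of 0.365. Pdia3 (F of 7.22) and Herpud1 (F of 6.56) followed, each with an adjusted p of 0.389. Leaving out 1 sample moved these: F ran from 5.94 to 13.5 for Trib3, highest without 1.0% replicate 4. For Herpud1 it ran from 5.38 to 32.7, highest without 0.5% replicates 4 and 5. For Pdia3 it was 4.59 without 0.1% replicate 5, and 14.4 without 0.5% replicates 4 and 5, with a value just below that without the other 0.5% sample. In that test 11 of 35 members had an unadjusted p under 0.05, against 9.25% of all genes, and none was among the 2 genes called (0.0152%).

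Ddit3 encodes CHOP, the factor tied to cell death under lasting stress. It read 5.45, 5.63, 5.62 and 6.07 in controls, 5.34, 6.35 and 5.56 at 0.1%, 5.79 and 5.05 at 0.5%, and 5.56 and 4.94 at 1.0%. The groups overlapped, and the difference at 1.0% was -0.44 ± 0.31, with an adjusted p of 0.822 by limma. It was -0.75 without replicates 2, 3, 5 and 6 and -0.13 without replicate 4. Asns, asparagine synthetase, read 4.74, 4.32, 4.18 and 4.46 in controls, 5.07, 4.23 and 4.96 at 0.1%, 4.52 and 3.39 at 0.5%, and 4.36 and 4.54 at 1.0%. These signals lie near the floor of 3.00 that was set for dim probe sets.

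Chac1, a glutathione-degrading enzyme, read 6.25, 6.81, 6.21 and 6.79 in controls, 6.09, 6.27 and 6.75 at 0.1%, 5.37 and 6.38 at 0.5%, and 6.54 and 5.56 at 1.0%. Each higher dose had 1 sample below all controls and 1 within them, and the 0.5% difference was -0.63 ± 0.33 (adjusted p = 0.960 by limma). It was -0.13 without replicates 1, 2, 3 and 6 and -1.14 without replicates 4 and 5. Ppp1r15a (GADD34), which helps restart translation, ran from 5.15 to 6.28, Sesn2, a stress-induced inhibitor of mTORC1, from 4.08 to 5.25, and Atf3, a stress-induced repressor, from 3.86 to 5.31. Psat1, of serine synthesis, was at the floor on 50% of the arrays and was not tested.

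Of the 9 ATF4 genes tested, 6 were higher than control at 0.1%, 1 at 0.5% and 1 at 1.0%, by their chosen probe sets. The medians were 0.12, -0.27 and -0.27, beside 0.0032, 0.0071 and -0.024 for all genes. At an unadjusted p under 0.05 there was 1 gene higher at 0.1% (4.48% of all genes) and 1 lower at 0.5% (2.71% of all genes), Trib3 both times, and none at 1.0%. The 0.5% median was -0.072 without replicates 4 and 5, -0.17 without control replicate 6 and -0.34 without the other sample. That at 1.0% was -0.13 without replicate 4, -0.18 without control replicate 5, and -0.10 with the RNA of 2 labels kept under each. The 0.1% median was 0.036 without replicate 5 of that diet, 0.037 without control replicate 5, 0.22 without 0.1% replicate 2 and -0.058 with no scaling. The 5 genes with an ATF4 element, Herpud1 among them, were all lower at 0.5%, with a median of -0.63. At 0.1%, 3 of the 5 were higher, with a median of 0.11, and at 1.0%, 1 was higher, with a median of -0.46. Without replicates 1, 2, 3 and 6, the 0.5% differences of Chac1, Herpud1 and Trib3 were -0.13, -0.32 and -0.34. Without replicates 4 and 5 they were -1.14, -1.91 and -1.36. Of the tested ATF4 genes without the element, Atf5 (-0.16), Ddit3 (-0.27), Ppp1r15a (-0.40) and Sesn2 (-0.12) were also lower at 0.5%, and Atf4 (0.24) was higher.

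**Figure D4:**
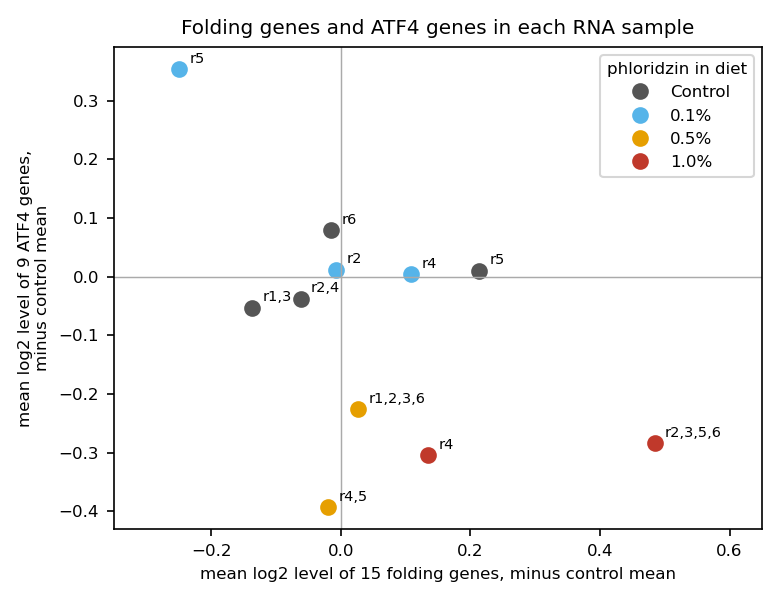
Each point is 1 RNA sample, placed by the mean log2 level of the 15 folding genes (horizontal) and of the 9 ATF4 genes tested (vertical), both minus the control mean, and labelled with its replicate numbers. The 4 samples of the higher doses lie between -0.39 and -0.23 on the vertical axis, below the controls, and 1 of them, replicates 2, 3, 5 and 6 at 1.0%, lies apart at 0.48 on the horizontal axis, all after quantile scaling.

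Averaged per sample, the folding genes stood at 0.48 and 0.13 above the control mean in the 1.0% samples, where the controls ran from -0.14 to 0.21. At 0.1% they stood at -0.01, 0.11 and -0.25, and at 0.5% at 0.03 and -0.02. The ATF4 genes stood at -0.28 and -0.30 at 1.0% and -0.23 and -0.39 at 0.5%, below the control range of -0.05 to 0.08. At 0.1% they stood at 0.012, 0.0041 and 0.35, so that replicate 5 was the highest ATF4 sample and the lowest folding sample of the 11. That sample was the highest of the 11 for 25.4% of all genes. Replicate 4 at 0.1% had an actin 3′ minus 5′ signal difference of 2.32, a sign of RNA quality, against 1.21 to 1.78 in the others. The part of these in the values was not tested.

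On phloridzin content as a straight line, 13 of 15 folding genes had a positive slope and 6 of them an unadjusted p under 0.05, where 3.4% of all genes had a positive slope at that level. None of the 9 ATF4 genes had a positive slope. After Dnajc3 the lowest p belonged to Hyou1 (0.64 ± 0.19 per percent of diet) and Hsp90b1 (0.71 ± 0.21), each with an adjusted p of 0.464 by limma, and no gene of the 13118 was called, while 1158 (8.83%) had an unadjusted p under 0.05.

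Against 0.1%, the 1.0% diet had 12 of 15 folding genes higher, 8 of them at an unadjusted p under 0.05 beside 4.89% of all genes, and all 9 ATF4 genes lower. None of the 35 members was called there by limma, where 2 genes were (0.0152%). Against 0.5% it had 13 of 15 folding genes higher, 4 at an unadjusted p under 0.05 beside 1.61% of all genes. These comparisons share their samples with those against control and add no independent samples.

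A wider list of 64 endoplasmic reticulum genes and 41 ATF4-related genes tested held no call at any dose against control, where the lowest adjusted p was 0.477. Between doses the lowest was 0.0986, that of Vldlr for 1.0% against 0.1%. At 1.0%, 40 of the 64 were higher, with a median of 0.051. At an unadjusted p under 0.05, 2 were higher and 1 lower, near the 2.48% and 4.02% of all genes. That median is smaller than the 0.26 of the 15 folding genes, and the difference between the lists was not tested. Of the 41, 18 were higher at 1.0%, with a median of -0.084, and 5 were lower at an unadjusted p under 0.05, beside the same 4.02% of all genes.

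The genes with the lowest p of the wider list were mostly of the ATF4 arm. Vldlr, a lipoprotein receptor, was 0.89 ± 0.23 above control at 0.1% and -0.79 ± 0.26 from it at 1.0% (adjusted p of 0.477 and 0.747). Its probe set is dim, at 3.36 to 5.27, and with a floor of 32 linear units the first was 0.10 and the second 0. Cth, cystathionine gamma-lyase, differed by -0.28 ± 0.09 at 0.1% and -0.34 ± 0.10 at 0.5%, and Eif2ak1, the heme-regulated eIF2alpha kinase, by -0.38 ± 0.15 at 0.5% (-0.21 without replicates 4 and 5). At 0.5% the apoptosis gene Bbc3 differed by -0.65 ± 0.30. At 1.0% the neutral amino acid carrier Slc1a4 differed by -0.62 ± 0.23 (-0.37 without replicates 2, 3, 5 and 6) and Creb3l2, a membrane-bound factor for secretory genes, by -0.69 ± 0.24. Kdelr2, the retrieval receptor of chaperones, was 0.46 ± 0.17 above control at 0.1%.

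Cells with much endoplasmic reticulum other than hepatocytes were looked for by their markers, since fewer cells of a type and less RNA per cell cannot be told apart in whole tissue. The 5 plasma cell markers that passed the signal filter were Jchain, Ighm, Mzb1, Sdc1 and Prdm1. They averaged -0.01 and 0.26 from the control mean at 1.0%, where controls ran from -0.21 to 0.12. Pou2af1 and Tnfrsf17 did not pass the filter and stood at 3.00 to 3.45 in all 11 samples. The pancreatic acinar marker Cpa1, which did not pass the filter, was at the floor of 3.00 in 10 of the 11 samples and at 3.25 in the other. The 3 acinar markers that passed it were Cela1, Prss2 and Cel. They averaged -0.029 and 0.25 at 1.0% and -0.072 and 0.58 at 0.5%, where controls ran from -0.50 to 0.26. The plasma cell value of -0.01 belongs to the 1.0% sample of replicates 2, 3, 5 and 6 and that of 0.26 to replicate 4. The part of these cells in the folding values was not tested.

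Markers of other liver cells also differed between samples in which the ATF4 genes stood low. The 3 cholangiocyte markers tested averaged 0.77 and 0.70 at 0.5%, 0.047 and 0.62 at 1.0%, and 0.80, 0.69 and 0.034 at 0.1%, where controls ran from -0.25 to 0.21. The 6 neutrophil markers averaged 0.073 and 0.83 at 0.5% and 0.15 and 0.068 at 1.0%, with controls from -0.36 to 0.25. At 0.1% they averaged -0.15, -0.31 and 0.12. The 6 stellate cell markers averaged -0.23 in both 1.0% samples and 0.13 and -0.16 at 0.5%, with controls from -0.22 to 0.18. At 0.1% they averaged 0.12, -0.10 and -0.22, the last in replicate 5. The part of these cells in the ATF4 values was not tested.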

How the data were processed

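Total RNA of 24 mouse livers by label was hybridised to 1-colour Affymetrix arrays, per the labels' protocols. The deposited table holds linear intensity values of 45101 probe sets. The software that made them is not given in the sources used here, and no detection calls were used. The array's gene symbols came from the platform annotation.

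Intensities were quantile normalised across arrays, set to a floor of 8 (log2 of 3.00) and put on the log2 scale. Non-control probe sets in the bottom 40% of mean signal were dropped, leaving 13118 genes, 35 of the 36 members, and 72 of their 81 probe sets. Arrays with a pairwise SD under 0.15 over bright genes (mean log2 over 9) were averaged, a threshold set after the data were seen. limma 3.58.1 in R 4.3.3 (lmFit, eBayes with trend) fitted 4 diets together, with 7 residual degrees of freedom and Benjamini-Hochberg adjustment over all genes. A call is an adjusted p under 0.05. The fit was tested on simulated data. Fold changes are on the floored log2 scale and understate those of dim genes.

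The members and lists were chosen with earlier results of these data known. Sample values are given for the 5 members with the lowest p per dose against control, the 3 lowest in the F-test and slope, and Hspa5, Hyou1, Xbp1, Atf4, Ddit3 and Asns. The other members named with every sample value, and further members with an unadjusted p under 0.05 at 1.0%, were added after their values were seen. Up to 3 genes of the wider list per dose are named by lowest p. Alternatives covered scaling, floor, filter, probe set choice, joining of arrays and leaving out each sample. Samples were not paired by replicate number in the main fit. Of 36 same-number correlations across diets, 6 passed 0.1 (from -0.15 to 0.42). The highest was that of replicate 1 at 0.1% with replicate 1 at 1.0%, which are arrays of 1 RNA. Pairs of unlike numbers were not compared, so these values cannot show whether the numbers pair samples.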

Additional observations from a re-analysis of the deposited data

Results flagged for a closer look

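The RNA found on arrays labelled 0.1% and 1.0% belonged to no comparison, and its Derl1 signal of 10.19 and Trib3 signal of 7.67 lay more than 0.5 above the highest control sample. Only values above the controls were flagged. Pdia3 at 9.99, Canx at 10.67, Dnajc3 at 8.72 and the dim Atf3 at 3.78 lay more than 0.5 below the lowest control sample. Over all 36 members this RNA lay above every control sample in 10 genes and below every one in 11. Its folding genes averaged -0.19 and its ATF4 genes 0.16 from the control mean.

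Trib3 differed between doses, with a tested contrast of -1.80 for 0.5% against 0.1% (adjusted p = 0.186 by limma). All 3 samples at 0.1% lay above all controls and both 0.5% samples at or below the lowest control. None of the 36 control groups had a sample set apart by the gap test, which chance would flag in about 1 of 20.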

How the results depend on the processing

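Of 43 log2 differences and slopes given for single genes, 38 kept their sign under every alternative run, 26 for each gene but Vldlr, which had 25. The 1.0% difference of Vldlr was 0 with a floor of 32. The other 4 reversed once each: Ern1 gave -0.12 at 0.5% and 0.14 for 1.0% against 0.5% as the mean of its probe sets, Derl1 gave -0.094 at 1.0% without probe sets of the _x_at and _s_at kinds, and Xbp1 gave -0.16 at 1.0% with no scaling. The size moved by over 1.5 times in 28 of the 43 with no scaling, 15 with median centring and 12 with the RNA of 2 diets kept under each label. Single probe sets agreed less. Of 20 members with several probe sets past the filter, all had the same sign in 12 at 0.1%, 9 at 0.5% and 10 at 1.0%. At 1.0% those of Sel1l ran from -0.34 to 0.42, of Canx from -0.018 to 0.51 and of Pdia6 from -0.45 to 0.18.

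The count of members called was 0 in every comparison and stayed there except where more arrays counted as separate samples or 1 sample was left out. With all 24 arrays as samples and no replicate block, 6 members were called at 0.1%, 3 at 0.5%, 6 at 1.0%, 14 for 0.5% against 0.1%, 14 for 1.0% against 0.1%, 9 for 1.0% against 0.5%, 22 in the F-test and 2 for the slope. With the replicate block these counts were 6, 2, 6, 14, 14, 8, 22 and 1. These fits count repeat hybridisations as separate livers. With only repeat hybridisations joined, 2 members were called for 0.5% against 0.1% and 4 for 1.0% against 0.1%. The share of all genes called under these settings is not given here. The counts therefore cannot be read as particular to the members. Leaving out 1 sample gave 0 to 1 calls at 0.5%, for 0.5% against 0.1% and in the F-test, the 1 being Herpud1 without 0.5% replicates 4 and 5, and 0 in the rest.

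Group medians moved with scaling. For the folding genes they were -0.24 at 0.1% with no scaling, -0.14 and -0.24 at 0.5% with median centring and none, and 0.027 and -0.13 at 1.0%. Without _x_at and _s_at probe sets the 1.0% median was 0.44. For all endoplasmic reticulum genes (main values of 0.018 at 0.5% and 0.19 at 1.0%) they were -0.14 and -0.24 at 0.5%, and -0.066 and -0.23 at 1.0%. For the ATF4 genes median centring and no scaling gave 0.026 and -0.058 at 0.1%, -0.36 and -0.46 at 0.5%, and -0.51 and -0.67 at 1.0%. Other settings for the ATF4 genes gave, at 0.1%, 0.19 with the mean of a gene's probe sets and 0.016 with the RNA of 2 diets kept under each label. At 0.5% they gave -0.16 with a floor of 16, -0.16 with a floor of 32, -0.15 with only repeat hybridisations joined, and -0.098 with all 24 arrays, with and without the replicate block. At 1.0% they gave -0.16 with a floor of 32, -0.098 with the RNA of 2 diets kept, -0.16 with all 24 arrays, with and without the block, and -0.33 with control replicates 1 to 4 joined, an alternative chosen after seeing the data. The causes were not tested.

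Leaving out each sample in turn gave medians of 0.054 to 0.268 for the endoplasmic reticulum genes at 1.0%, 0.072 to 0.503 for the folding genes at 1.0%, and 0.036 to 0.219 (0.1%), -0.344 to -0.072 (0.5%) and -0.361 to -0.128 (1.0%) for the ATF4 genes. Dim genes such as Asns, Atf3 and Psat1 are limited by signal near the floor.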
